A study of Mus musculus with 6 samples.

Results

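The cytosolic ribosomal proteins were followed in RET mouse melanoma cells, an established line, after a short hairpin RNA (shRNA) against Angpt2 had been introduced. Members were chosen by symbol: every gene named Rpl or Rps with a number and at most 2 letters, together with Rplp0, Rplp1, Rplp2 and Rpsa, on probe sets that the platform annotation gives to exactly 1 gene. This gave 64 genes, 24 of the small and 40 of the large subunit, among 22180 genes tested. For the 24 members with several probe sets (transcript clusters), the one with the highest average signal was kept.

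The knockdown cells carried Angpt2 shRNA-1 and the control cells a non-targeting shRNA, both in RET cells whose strain is given as C57BL\6, with 3 arrays each that the labels call biological replicates. Equal numbers of cells had been cultured for 24 h, and 100 ng of total RNA from each sample was hybridised to its own Affymetrix Mouse Gene 2.0 ST array. All knockdown arrays stem from 1 hairpin, with no second hairpin and no rescue among the samples used here. The titles of the control samples also mention GFP, whose meaning the labels do not give.

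Angpt2, the targeted gene, which encodes a secreted ligand of the Tie2 receptor, had intensities of 100.2, 122 and 122 in the Angpt2 shRNA-1 arrays and 195, 372 and 326 in the control arrays. The groups did not overlap, and the log2 difference, Angpt2 shRNA-1 minus control, was -1.33 with a standard error (SE) of 0.21. limma gave it an adjusted p of 1.00, or 0.046 when arrays were paired by replicate number, a block in the fit. That pairing was chosen from these same data and not from the labels, which limits the second value. Without control replicate 1, the lowest control array, the difference was -1.61 with an adjusted p of 0.0116 in limma. That is the control array nearest the knockdown arrays, so leaving it out enlarged the difference and adds no evidence for the knockdown. The last section gives the range over all arrays left out in turn. The 8 melanocyte markers had intensities between 1387 and 9651, and those of leukocytes, endothelial cells and fibroblasts, 4 each, lay between 45.2 and 175. Array medians ran from 74.5 to 76.2, and the number of arrays limits the precision.

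Each ribosome joins a small subunit, which holds the messenger RNA and reads its codons, to a large subunit, which forms the peptide bond and lets the new chain out through a tunnel. Mammalian cells make the protein components in matched amounts, and an unassembled excess is degraded. Their messenger RNAs carry a 5′ terminal oligopyrimidine (TOP) tract, a C followed by further pyrimidines at the very start, through which mTORC1 signalling governs their translation. An array measures the amount of these messages and not how well they are translated.

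Promoter windows from RefSeq (GRCm38.p6) were found for 49 of the 64 members. The following 40-base stretches show the feature for which the family is known, in 5 members with a C and 4 further pyrimidines from the annotated start and in 3 of the members with the largest differences without it. Each line is the sense strand with the start directly after the first 20 bases, and capitals mark the longest run of C or T that touches the 10 bases on either side of the start.
Rps10, chr17:27635225-27635264, minus strand: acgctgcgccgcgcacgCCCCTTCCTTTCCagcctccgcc
Rps6, chr4:86857348-86857387, minus strand: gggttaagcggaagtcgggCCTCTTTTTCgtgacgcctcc
Rpl15, chr14:18270967-18271006, minus strand: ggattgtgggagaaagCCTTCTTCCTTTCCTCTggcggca
Rpl35, chr2:39005112-39005151, minus strand: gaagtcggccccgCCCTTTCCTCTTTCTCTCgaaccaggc
Rpl38, chr11:114668560-114668599, plus strand: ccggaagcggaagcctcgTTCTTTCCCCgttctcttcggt
Rps7, chr12:28635934-28635973, minus strand: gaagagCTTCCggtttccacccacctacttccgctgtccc
Rplp0, chr5:115559447-115559486, plus strand: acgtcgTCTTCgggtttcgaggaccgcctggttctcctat
Rps27l, chr9:66946066-66946105, plus strand: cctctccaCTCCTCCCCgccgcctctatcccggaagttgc

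A start of C with 4 further pyrimidines was annotated in 11 of the 49 members (22.4%), against 456 of the 16941 other tested genes with a promoter window (2.69%). Runs of at least 8 pyrimidines at the start were present in 49.0% of members and 16.1% of the other genes. The ETS motif CCGGAAG, searched on both strands of the 300 bases around the start, was found in 44.9% of members and 12.6% of the others. It stands in the lines of Rpl38 and Rps27l above and, on the other strand, in that of Rps7. The SP1 motif GGGCGG on both strands (51.0% against 49.5%), TATAAA on the sense strand (8.16% against 9.22%) and the YY1 motif AAGATGG on both strands (12.2% against 7.30%) were closer to the other genes. These matches describe letters in a window; binding was not measured here.

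Of the 80 proteins listed for the mouse cytosolic ribosome, 57 were members. The other 23 fell outside the symbol rule or had no single-gene probe set among the genes tested, and 12 of them occur in probe sets that name several genes. The 7 members outside the canonical set were the paralogues Rpl3l, Rpl10l, Rpl39l, Rps4l and Rps27l together with Rpl6l and Rpl32l. Rpl6l is a pseudogene and Rps4l a transcribed pseudogene in RefSeq. Rps3a1, a small subunit protein that the wording of the rule leaves out, differed by -0.05 (SE 0.13) on the log2 scale, and Fau, whose product is cleaved to give Rps30, by 0.05 (SE 0.09).

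No ribosomal protein gene passed the test for a difference between Angpt2 shRNA-1 and control cells. In limma's fit across all 22180 genes, 0 of the 64 members had an adjusted p under 0.05, where 0% of all genes did. At an unadjusted p under 0.05, 1 member passed (Rps10, lower), against 3.76% of all genes (2.24% lower and 1.52% higher in Angpt2 shRNA-1 cells). That count uses only the brightest cluster of each gene. In limma's fit of all 40425 complete clusters, dimmer clusters of Rplp1, Rplp0 and Rpl27 also passed that unadjusted limit, as 4.13% of all clusters did. Their log2 differences were 0.37 for Rplp1, 0.22 for Rplp0 and -0.32 for Rpl27, and none passed after adjustment. In the fit that pairs arrays by replicate number, 0 members had an adjusted p under 0.05 (0.00902% of all genes did) and 3 an unadjusted one (Rps10, Rpl7 and Rps7), against 4.58%. The median log2 difference of the members was 0.03, against -0.01 over all genes, and was 0.03 in either subunit. With equal RNA input in these bulk samples, a change in cell number or in RNA per cell would not show, and neither was measured here.

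Most of the measured differences were small. The log2 difference lay within 0.1 of 0 for 44 members, 15 of 24 in the small and 29 of 40 in the large subunit, as it did for 14523 of all genes. For 46 members, and for 16449 of all genes, the whole 95% confidence interval lay within a 1.3-fold difference either way. The median distance from the estimate to a bound of that interval was 0.21 on the log2 scale for the members and 0.23 for all genes. For a typical member, smaller differences could not be told from 0 even before adjustment. The intervals carry no adjustment for the number of genes, so a larger difference could still fail the test. Rps10 at -0.59, whose interval left out 0, did not pass it.

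**Figure D1:**
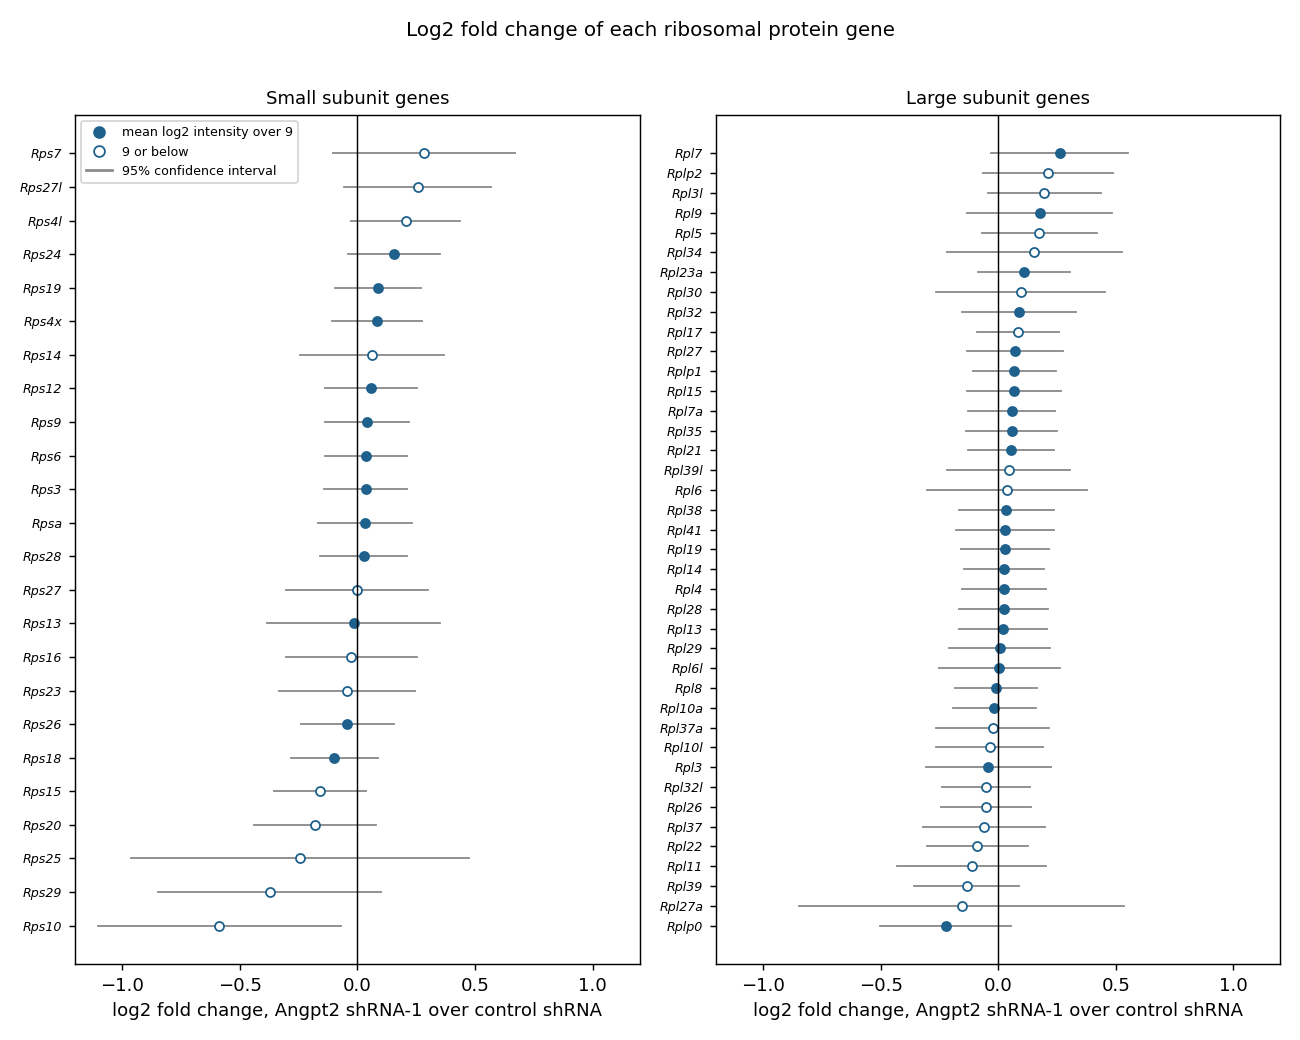
Log2 difference of each of the 64 ribosomal protein genes, Angpt2 shRNA-1 over control, with 95% confidence intervals, small subunit on the left and large subunit on the right. Filled points are the 35 members with a mean log2 intensity over 9, which cluster around 0, and Rps10 at the bottom left is the single member whose interval leaves out 0.

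The arrays of the groups did not overlap for 8 members. The Angpt2 shRNA-1 arrays were higher for 6 of them, Rpl14, Rpl21, Rplp1, Rpl17, Rpl23a and Rps24, where 3.53% of all genes were so placed, and lower for Rps15 and Rps18, where 5.48% were. Together the 8 of 64 stand beside 9.01% of all genes. With 3 arrays against 3, the exact permutation test cannot give a two-sided p below 0.1, the value for each of these 8.

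Among the small subunit proteins, Rps10 had the most negative difference. Rps10 sits near the entry of the messenger RNA channel and is one of the proteins that are tagged with ubiquitin when ribosomes stall. Its intensities were 118, 135 and 124 in the Angpt2 shRNA-1 arrays and 214, 256 and 122 in the control arrays. Control replicates 1 and 2 stood above every Angpt2 shRNA-1 array, and control replicate 3 lay inside their range. The log2 difference was -0.59 (SE 0.23, 95% interval -1.10 to -0.07), or 0.665 of the control mean, with an unadjusted p of 0.0301 and an adjusted p of 1.00 in limma. Differences within replicate numbers were -0.86, -0.92 and 0.02, and the log2 difference was -0.37 without control replicate 2 and -0.90 without control replicate 3.

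Rps29, a zinc-binding protein of the small subunit head, had 90.3, 102 and 81.6 in the Angpt2 shRNA-1 arrays and 146, 80.1 and 141 in the control arrays, a log2 difference of -0.37 (SE 0.21). Here control replicate 2 was the lowest of all 6 arrays and the other control arrays the highest, and without it the difference was -0.65 (adjusted p = 0.730 in limma), against -0.22 without control replicate 1. Rps25, which some viral and cellular messages need for initiation at internal entry sites, had 189.6, 215 and 186 in the Angpt2 shRNA-1 arrays and 184, 437 and 156 in the control arrays. A single control array set its difference of -0.24 (SE 0.32), which was 0.21 without control replicate 2.

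Rps20, another head protein tagged on stalled ribosomes, had 70.1, 75.4 and 62.6 in Angpt2 shRNA-1 cells and 90.6, 72.0 and 73.5 in control cells, with overlapping arrays and a difference of -0.18 (SE 0.12). Rps15, whose tail reaches the decoding site, had 68.6, 78.4 and 74.1 in Angpt2 shRNA-1 cells and 78.5, 84.2 and 84.0 in control cells, a difference of -0.16 (SE 0.09). Rps18, which lies at the bridge between the head and the large subunit, had 696, 699 and 695 in Angpt2 shRNA-1 cells and 791, 743 and 706 in control cells, a difference of -0.10 (SE 0.08) that was 0.00 when its clusters were averaged. Neither Rps15 nor Rps18 overlapped between groups, yet the gap between the nearest arrays was narrow for both. The signals of Rps20 and Rps15 cannot be told from background, as the table carries no detection calls.

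Rps7 had the most positive difference of all members. It takes part in processing the precursor of 18S rRNA, and its intensities were 260.2, 297 and 248 in the Angpt2 shRNA-1 arrays and 167, 282 and 226 in the control arrays. Its difference was 0.28 (SE 0.17), with 0.08 without control replicate 1, the lowest array, and 0.46 without control replicate 2. Rps24, also needed for maturation of that rRNA, had 1420.5, 1490.3 and 1477 in the Angpt2 shRNA-1 arrays and 1214, 1329.7 and 1402 in the control arrays. All its Angpt2 shRNA-1 arrays were above all control arrays, and the group means differed by 0.16 (SE 0.09) on the log2 scale. Averaged over its 3 clusters the difference was 0.31, with a second cluster at 0.65 (SE 0.28). Rps6, the classical substrate of the S6 kinases, had 6387, 6464 and 6520.4 in Angpt2 shRNA-1 cells and 6396, 6121 and 6380.1 in control cells, with a difference of 0.04 (SE 0.08).

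**Figure D2:**
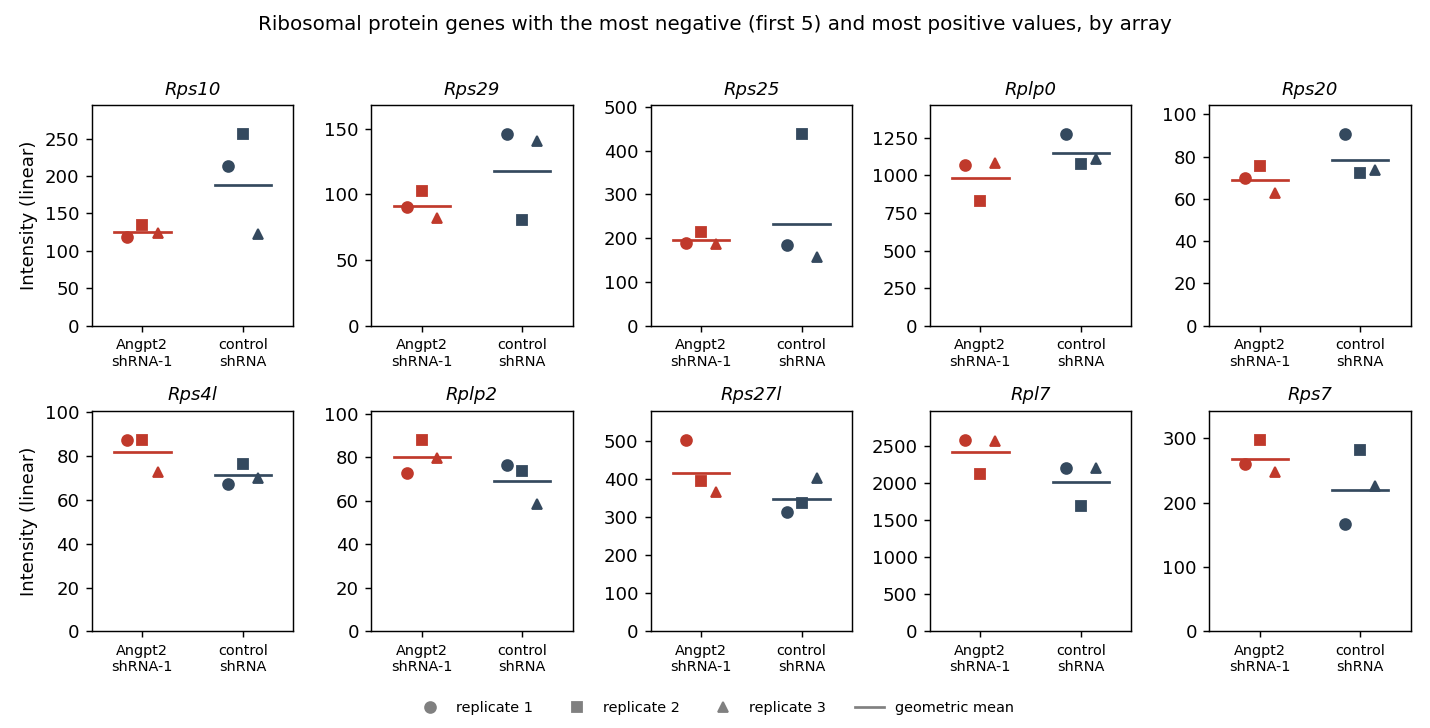
Intensity on a linear scale in each array for the 5 members with the most negative log2 differences (top) and the 5 with the most positive (bottom, ending with Rps7 at the right), with replicate numbers as symbols and the geometric mean as a bar. The groups overlap in all 10 panels, and single control arrays stand apart for Rps10, Rps25 and Rps29.

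In the large subunit, the stalk recruits and activates the elongation GTPases, and 3 of its 4 listed proteins were measured. Rplp0, its base, had 1066, 828 and 1081 in the Angpt2 shRNA-1 arrays and 1274, 1076 and 1108 in the control arrays, the most negative difference of the subunit at -0.22 (SE 0.12). It was -0.10 without Angpt2 shRNA-1 replicate 2, where Rpl27a (-0.30) and Rpl39 (-0.14) were more negative, so that rank rests on 1 array. Rplp1 had 6962, 7069 and 7021 in the Angpt2 shRNA-1 arrays and 6732, 6463 and 6896 in the control arrays, a difference of 0.07 (SE 0.08). Rplp2, its partner in the stalk dimers, had 72.7, 88.0 and 79.7 in the Angpt2 shRNA-1 arrays and 76.3, 73.8 and 58.5 in the control arrays, a difference of 0.21 (SE 0.12). On these probe sets Rplp1 alone of the 3 had arrays that did not overlap. Different probe sets of Rplp0 and Rplp1 disagreed: averaged over their clusters, Rplp0 differed by 0.00 and Rplp1 by 0.22, beside 0.21 for Rplp2. The second, dimmer cluster of Rplp1 had 441, 479 and 469 in the Angpt2 shRNA-1 arrays and 353, 341 and 384 in the control arrays, again without overlap, a difference of 0.37 (SE 0.09, adjusted p = 1.00 in limma's fit of all complete clusters). The second cluster of Rplp0 was dim, with 133, 156 and 145 in the Angpt2 shRNA-1 arrays and 126, 120 and 125 in the control arrays. It also had no overlap and differed by 0.22 (SE 0.09), opposite in sign to the brighter cluster of that gene. The value for Rplp2 also comes from a dim probe set. A brighter one that names Snora52 and Rplp2, with arrays between 661 and 920, differed by 0.04 (SE 0.15).

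Rpl5 and Rpl11 bind 5S rRNA in the particle that also restrains Mdm2, the ubiquitin ligase of p53. Rpl5 had 200.4, 247 and 224 in the Angpt2 shRNA-1 arrays and 178, 206 and 210.2 in the control arrays, a difference of 0.18 (SE 0.11). Another probe set, which names Rpl5 and Rpl5-ps2, had arrays between 203 and 266 and differed by -0.09 (SE 0.11). The sign for Rpl5 thus depended on the probe set. Rpl11 had 75.5, 92.1 and 104 in the Angpt2 shRNA-1 arrays and 87.6, 91.9 and 114 in the control arrays, a difference of -0.11 (SE 0.14). With single arrays left out, that of Rpl11 ran from -0.22 (Angpt2 shRNA-1 replicate 3 left out) to 0.01 (Angpt2 shRNA-1 replicate 1 left out). The groups overlapped for both, and neither passed the test.

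Rpl7 had the most positive difference of the large subunit, with 2579, 2125 and 2565 in the Angpt2 shRNA-1 arrays and 2206, 1688 and 2195 in the control arrays. The log2 difference was 0.26 (SE 0.13), and those within replicate numbers were 0.23, 0.33 and 0.22, with replicate 2 the lowest array of either group. It was 0.13 without control replicate 2 and 0.03 when all clusters of the gene were averaged. Rpl9, which lies at the base of the stalk, had 918, 1091 and 1081 in the Angpt2 shRNA-1 arrays and 915, 755 and 1085 in the control arrays. Its difference of 0.18 (SE 0.14) was 0.04 without control replicate 2 and -0.07 when all clusters were averaged.

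Of the 8 listed proteins around the exit of the peptide tunnel 7 were measured, 4 of them with positive values and with a median of 0.03. Rpl23a, a docking site for the signal recognition particle at the exit, had 2278, 2252 and 2368 in Angpt2 shRNA-1 cells and 2211, 1959 and 2224 in control cells, a difference of 0.11 (SE 0.09). Rpl17, which lines the tunnel, had 150.5, 143 and 146 in Angpt2 shRNA-1 cells and 141, 136 and 137 in control cells, a difference of 0.08 (SE 0.08). Rpl39, also part of the tunnel wall, had 63.4, 71.8 and 78.6 in Angpt2 shRNA-1 cells and 79.0, 74.3 and 80.7 in control cells, a difference of -0.13 (SE 0.10). Of these 3, Rpl39 alone had overlapping arrays.

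The other members without overlap, Rpl21 and Rpl14, differed by little on the probe sets kept. Rpl21 had 7148, 7070.4 and 7032 in Angpt2 shRNA-1 cells and 7017, 6466 and 6993 in control cells, a difference of 0.05 (SE 0.08). Another bright cluster of Rpl21 had 6080, 6385 and 6274 in Angpt2 shRNA-1 cells and 5768, 5430 and 5772 in control cells. Its arrays did not overlap either, and it differed by 0.14 (SE 0.08). A dim cluster of Rpl21 differed by -0.11 (SE 0.14), and the average over all Rpl21 clusters was 0.03. Rpl14 had 3132, 3179 and 3103 in Angpt2 shRNA-1 cells and 3102, 3064 and 3086 in control cells, a difference of 0.02 (SE 0.08). Rpl14 had the lowest standard deviation over the 6 arrays of all members, 0.018 on the log2 scale, followed by Rpl8 at 0.028 and Rpl10a at 0.031. The highest were Rps25 at 0.527, Rpl27a at 0.497 and Rps10 at 0.481. Rpl27a had 84.1, 97.2 and 61.8 in Angpt2 shRNA-1 cells and 61.5, 73.9 and 153 in control cells, and its difference of -0.15 (SE 0.31) was 0.24 without control replicate 3 and -0.42 without control replicate 1. That probe set is dim. A much brighter one that names Rpl27a and Gm13981, with arrays between 4273 and 4731, differed by 0.09 (SE 0.08). Another that also names Snora3, with arrays between 289 and 451, differed by 0.01 (SE 0.18).

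Paralogues of canonical proteins were set beside their parent genes, and none passed the test, which 0% of all genes passed. Rps27l, a p53 target in human cells, had 502, 393 and 364 in the Angpt2 shRNA-1 arrays and 313, 336 and 401 in the control arrays. Its difference was 0.26 (SE 0.14), and 0.12 without Angpt2 shRNA-1 replicate 1, the highest array. The parent gene Rps27 had 134, 164 and 139 in the Angpt2 shRNA-1 arrays and 129.8, 134 and 176 in the control arrays, a difference of 0.00 in size (SE 0.13). A brighter probe set that names Rps27 and Rps27rt, with arrays between 2465 and 3151, differed by 0.12 (SE 0.11).

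Rps4l differed by 0.21 (SE 0.10) and Rps4x by 0.08 (SE 0.08). Rpl3l, the form of striated muscle, differed by 0.20 (SE 0.11) and Rpl3 by -0.04 (SE 0.12). The 95% intervals of all 4 took in 0. Rpl39l, a testis-enriched form, differed by 0.04 (SE 0.12), against -0.13 for Rpl39, and Rpl10l, another testis form, by -0.04 (SE 0.10). Outside the symbol rule, Rpl22l1 differed by 0.16 (SE 0.11), against -0.09 (SE 0.09) for Rpl22, and Rpl7l1 by 0.10 (SE 0.10). Differences between paralogue and parent were not tested. Rpl3l, Rpl10l, Rpl39l, Rps4l and Rpl22l1 had intensities between 45.2 and 90.6, which cannot be told from background because the table carries no detection calls. Those of the canonical members Rps15, Rps20, Rpl39 and Rplp2 lay within the same range, with the same limit.

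The members fell on both sides of the signal range. A mean log2 intensity over 9, or 512 on the linear scale, a limit set after the values were seen, separated 35 brighter members, 34 of them canonical, from 29 dimmer ones, 23 of them canonical. Rps13 lay just inside it with arrays between 468 and 702, and Rps27l just outside with arrays between 313 and 502. Of the 23 dim canonical members, 11 were also named in probe sets that list several genes, 8 of them in a bright one. Rpl6 is an example of the split, with 88.2, 128 and 119.6 in Angpt2 shRNA-1 cells and 93.8, 121 and 110.3 in control cells on its own probe set. The probe set named for Rpl6l had 2254, 2299 and 1983 in Angpt2 shRNA-1 cells and 2494, 2119 and 1925 in control cells and, where near-identical copies can share probes, the origin of the signal is uncertain. For these dim members the level of the canonical message is therefore uncertain too.

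Among the members, precision followed the signal. The median standard deviation within groups was 0.076 for the brighter members and 0.177 for the dimmer ones on the log2 scale, against 0.122 over all genes. The 3229 other genes over the limit also had 0.122, so the limit alone brought no such gain. The confidence interval lay within 1.3-fold for 31 of 35 brighter members and 15 of 29 dimmer ones, beside 2370 of those 3229 genes. Brighter members had a median difference of 0.04, from -0.22 (Rplp0) to 0.26 (Rpl7), with 28 of 35 positive, beside 1560 of 3229 (48.3%) of the other genes over the limit and 45.2% of all genes. The dimmer members had a median of -0.03 with 12 of 29 positive. The 12 brighter small subunit members had a median of 0.04 and ran from -0.10 (Rps18) to 0.16 (Rps24), with 9 positive. The 23 brighter large subunit members had a median of 0.03, with 19 positive. Among the 26 brighter members with a promoter window, 15 had a run of at least 8 pyrimidines at the start. Only 7 had the C and 4 pyrimidine start, which goes by the exact annotated base. Rpl7a, with a run of 21, counts as without it, so the split does not separate messages with and without a pyrimidine tract. The 7 with that start had a median of 0.04 and the 19 without it 0.03. Of those whose starts are printed above, Rps6 differed by 0.04, Rpl15 by 0.07, Rpl35 by 0.06 and Rpl38 by 0.04, while Rps10, with the same kind of start, was among the dimmer members. The 57 probe sets that name several genes and a ribosomal protein had a median difference of 0.04, from -0.45 to 0.47. None of them had an adjusted p under 0.05 in limma and 2 had an unadjusted p under it, in a fit of all 40425 complete clusters, where 0% and 4.13% did.

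**Figure D3:**
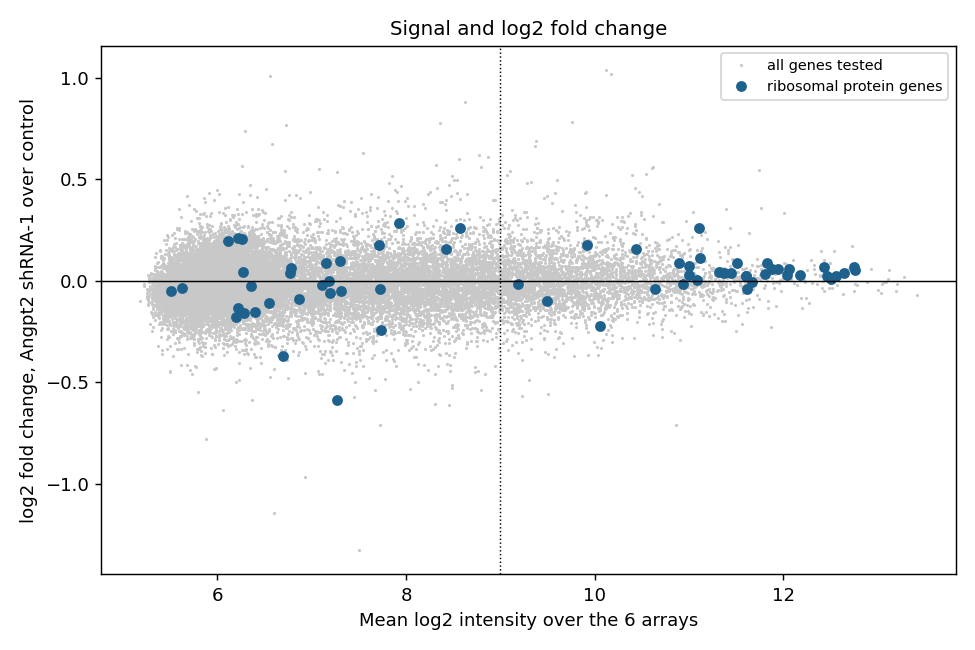
Mean log2 intensity over the 6 arrays against the log2 difference, Angpt2 shRNA-1 over control, for all 22180 genes (grey) and the 64 ribosomal protein genes (blue). Right of the dotted line at 9 the 35 brighter members lie close to 0, and left of it the spread is wider, with Rps10 at -0.59.

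A single control array stood apart for the brighter members. Control replicate 2 was the lowest of the 6 arrays for 26 of the 35 (74.3%), against 677 of 3229 other genes over the same limit (21.0%). The median deviation of the 35 from their own means was -0.08 on that array, where the other bright genes stood at 0.01, and between 0.01 and 0.03 on the other 5 arrays. The number of positive values among brighter members moved with that array. Without control replicate 2 their median difference was 0.02 with 20 of 35 positive, and with each other array left out in turn it ran from 0.03 to 0.07 with 25 to 32 positive. Median differences within replicate numbers were 0.00, 0.09 and 0.01.

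The 71 mitochondrial ribosomal proteins, which build the separate ribosome of that organelle, were low on the same array, with a median deviation of -0.05. Their median difference was 0.03, with 49 of 71 positive and 0 passing the test, which 0% of all genes passed. The 23 measured initiation factors, which load the ribosome onto messages, stood at 0.02 on that array and had a median difference of 0.00 with 12 positive. Members of the 2 ribosomes share the array, and the cause of its low values was not tested.

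**Figure D4:**
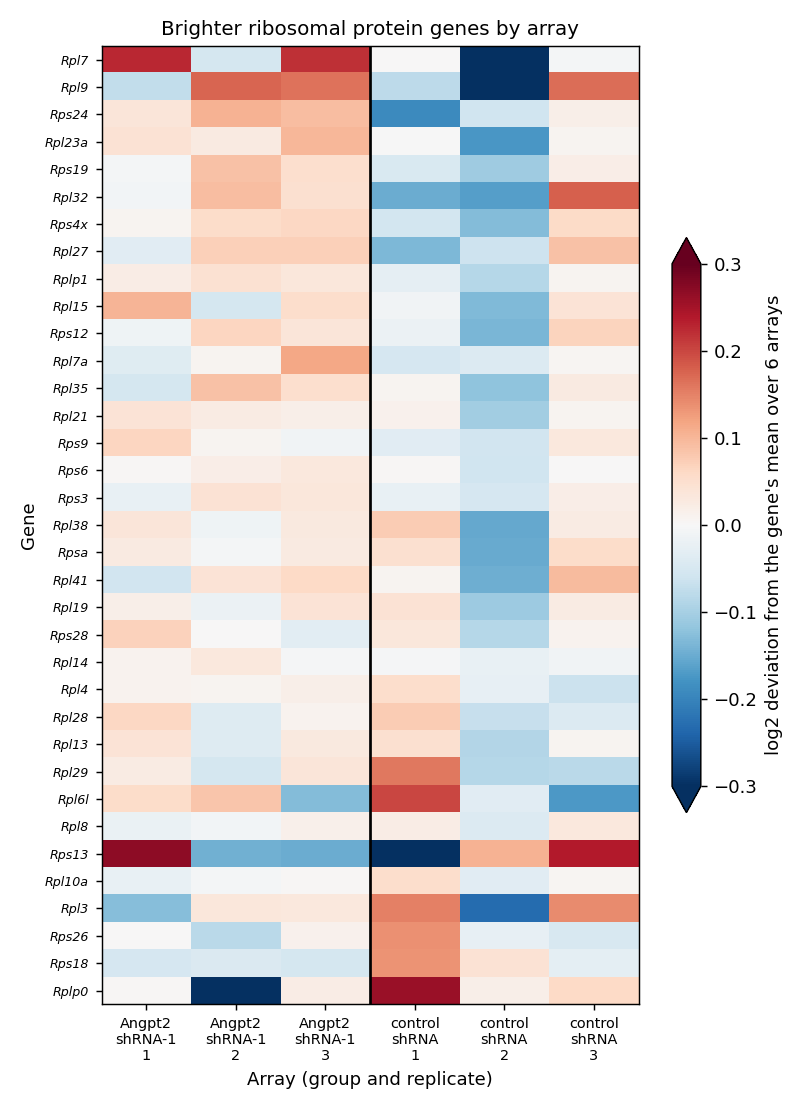
Deviation of each of the 35 brighter members from its own mean over 6 arrays on the log2 scale (red above, blue below), Angpt2 shRNA-1 arrays left of the line and control arrays right of it. The column of control replicate 2 is blue for most genes, and is the lowest array for 26 of 35.

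**Figure D5:**
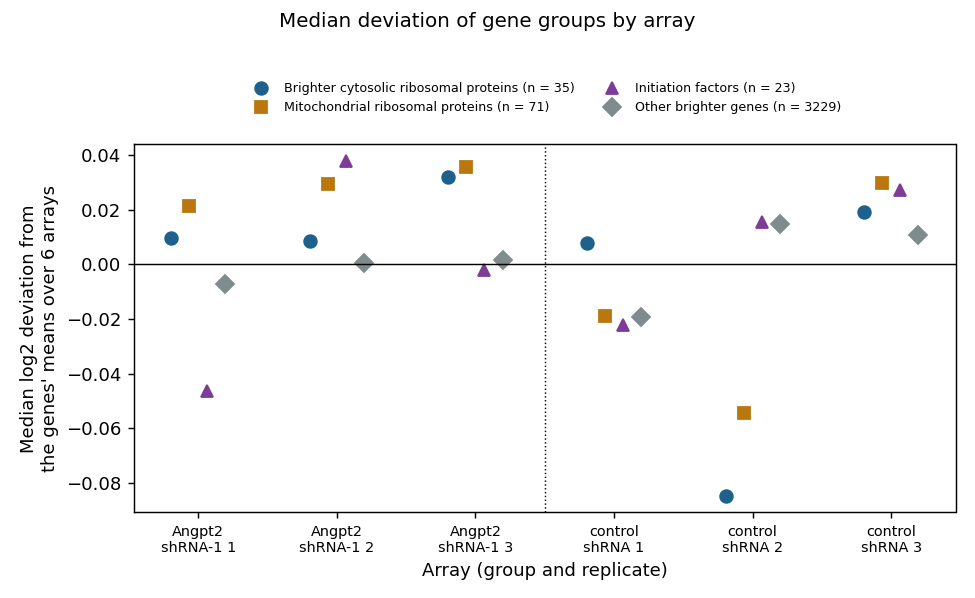
Median log2 deviation on each array for the 35 brighter ribosomal protein genes, 71 mitochondrial ribosomal proteins, 23 initiation factors and 3229 other genes with a mean log2 intensity over 9. On control replicate 2 the cytosolic set stands at -0.08 and the mitochondrial set at -0.05, with the other sets above 0.

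Genes that act with the ribosomal proteins were described the same way. In each list 0 passed limma's test, where 0% of all genes did, so this count does not set the lists apart. Of 18 listed ribosomal protein genes mutated in human Diamond-Blackfan anaemia, an inherited failure of red cell production, 14 were measured. They had a median difference of 0.04, with 8 positive, and spanned the members' whole range from Rps10 at -0.59 to Rps7 at 0.28. Other messages with a TOP start, 15 of 18 measured, had a median of 0.04 with 10 positive, from -0.16 (SE 0.13) for Pabpc1, the poly(A)-binding protein, to 0.14 (SE 0.10) for Nap1l1, a histone chaperone.

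Ribosome assembly factors, 33 of 36 measured, had a median of 0.01 with 18 positive. Dkc1, the pseudouridine synthase of the nucleolus, had the highest value of that list, with 1469.7, 1624 and 1294 in the Angpt2 shRNA-1 arrays and 981, 1400.1 and 1165 in the control arrays, a difference of 0.32 (SE 0.14, adjusted p = 1.00 in limma). Nip7, which acts on pre-rRNA, had the lowest at -0.23 (SE 0.11). Dedicated chaperones of ribosomal proteins, 8 of 9 measured, had a median of 0.02, with Tsr2, the carrier of Rps26, lowest at -0.17 (SE 0.11). Regulators of ribosomal protein production, 12 of 15 measured, had a median of -0.03 with 4 positive, from -0.22 (SE 0.11) for Rps6kb2, an S6 kinase, to 0.15 (SE 0.09) for Rheb, the GTPase that activates mTORC1. Rheb had an unadjusted p of 0.113 in limma with no overlap between groups, while the groups overlapped for Dkc1 (unadjusted p of 0.0486 in limma). None of these list medians left the range between -0.03 and 0.04.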

How the data were processed

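The deposited table held intensity values on a linear scale for 41345 transcript clusters in 6 samples, already normalized by the authors. The sources used here do not say how probes were corrected and summarized. That the scale is linear follows from the values, with a lowest of 28.1 and a highest of 12624. The 23521 clusters with 1 gene symbol entered the analysis, and the brightest cluster of each gene was used. The 1814 clusters with several symbols and the 16010 unnamed ones stayed out of the gene-level fit.

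The log2 of each value, with no pseudocount, was fitted in R 4.3.3 with limma 3.58.1 (functions lmFit and eBayes). Tests were two-sided, p-values were adjusted by Benjamini-Hochberg over 22180 genes, and the threshold was 0.05. Exact permutation tests were run in Python 3.11.15 with SciPy 1.17.1. The fit was tested on simulated data. Groups came from the genotype labels, and p-values measure the spread between these arrays.

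Both groups number their replicates 1 to 3. Deviations from the group means correlated at 0.128, 0.211 and 0.143 between same-numbered arrays, so the numbers were treated as pairs in the fit with a replicate block. This pairing comes from the data and not from the labels.

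Genes named in the text were those with an unadjusted p under 0.05 or arrays that did not overlap, the 8 highest and 8 lowest differences, the 3 highest and 3 lowest standard deviations, paralogues with their parents, and the extremes of each list. Rps6, Rps13, Rpl6, Rpl6l, Rpl15, Rpl27, Rpl35, Rpl38, Rps3a1 and the promoters shown were chosen after values were seen, as were the log2 limit of 9 and the 1.3-fold bound. Members and lists were chosen with earlier results of these data known. Promoter sequences are from RefSeq.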

Additional observations from a re-analysis of the deposited data

How the results depend on the processing

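No ribosomal protein gene passed the threshold under any alternative: the replicate block, quantile normalization, centring of arrays on their medians, a pseudocount of 16, genes above the median level, averaging a gene's clusters, array weights, limma's trend and robust options, and leaving out each array. Among all genes, 2 passed with the replicate block, 1 with centred arrays, 1 with the trend and robust options, and from 0 to 2 with 1 array left out (2 without control replicate 2, 1 without control replicate 1). The pairing by the replicate block kept the members' median difference at 0.03 and left Angpt2 at -1.33 with an adjusted p of 0.046. With each array left out, the members' median ranged from 0.0158 to 0.0548 and Angpt2 from -1.61 to -1.14. Of 714 values under the alternatives for the 52 genes that the naming rule chose besides Angpt2, 26 in 13 genes turned sign and 0 passed the threshold. Genes named after their values were seen are not among the 52. The cause of these shifts was not tested. The number of arrays and the missing detection calls limit all values, most for dim members.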
